A study of Mus musculus with 24 samples.

Results

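Potassium channel genes were taken from the table as all protein-coding genes whose symbol starts with Kcn, followed by at least 1 letter and a number, without Kcnj10, Kcnj8 and Kcne2. The rule used names alone and gave 90 of the 33000 genes, in 20 subfamilies that share the letters after Kcn. Of these genes, 75 encode pore-forming subunits and 15 auxiliary subunits. Frontal cortex RNA of C57BL/6 mice aged 3 months was measured with 3'Pool-seq, which primes reverse transcription at the polyA tail and counts reads from the 3' ends of transcripts. The 3 WT mice carried no transgene, and the 3 GFAP-IL6 mice were homozygous for a transgene that expresses the cytokine Il6 from the promoter of Gfap, which is active in astrocytes. The RNA of each mouse went into 4 libraries, tagmented from 2 ng or from 1 ng of cDNA and labelled as set A or set B at either amount. What distinguishes the sets is not given in the labels. The mouse was therefore the replicate (n = 3 per genotype), and the 4 libraries of a mouse were summed.

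Potassium channels let potassium ions leave a cell down their gradient, which sets the resting potential of neurons and glia and ends each action potential. A pore is built from several alpha subunits around a selectivity filter. Voltage-gated subunits open on depolarization, calcium- and sodium-activated subunits respond to ions inside the cell, inward rectifiers hold the resting potential, and tandem-pore subunits carry leak current. Silent subunits form no channel alone and change the Kv2 channels that they join, and auxiliary subunits set the gating and the surface level of the pores.

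The selectivity filter is the feature that the pore-forming members share and that the name rule did not use. In the coding sequences of GENCODE vM21 transcripts (GRCm38, the same build as mm10), a script looked in frame, on the coding strand only, for a codon of threonine or serine, any codon, a glycine codon (GGN), a codon of tyrosine (TAC or TAT) or of phenylalanine (TTC or TTT), and a second glycine codon. All 75 pore-forming members held such a stretch and 0 of 15 auxiliary members did. Of the other 21565 protein-coding genes with a coding sequence 491 held it (2.28%), so the letters alone do not mark a channel. For some of the pore-forming members described below, the 30 bases that start at the threonine or serine codon are given 5′ to 3′ on the coding strand. The 3 codons glycine, tyrosine or phenylalanine, and glycine are in capitals.
Kcna1 (voltage-gated), chr6:126642213-126642242, minus strand: actgtgGGATACGGTgacatgtaccctgtg
Kcna2 (voltage-gated), chr3:107105224-107105253, plus strand: actgtaGGCTATGGAgacatggttccaact
Kcnc1 (voltage-gated), chr7:46427973-46428002, plus strand: acactgGGCTATGGAgacatgtatccccag
Kcnq3 (voltage-gated), chr15:66023716-66023745, minus strand: accattGGTTATGGAgacaagacacctaaa
Kcnh7 (voltage-gated), chr2:62777328-62777357, minus strand: agtgtaGGATTTGGAaatgtgtctcctaac
Kcnh1 (voltage-gated), chr1:192337754-192337783, plus strand: agtgtgGGCTTTGGTaacattgccccatcc
Kcnv1 (silent), chr15:45109274-45109303, minus strand: acagtaGGATATGGGgacattagaccagac
Kcnma1 (calcium-activated), chr14:23528398-23528427, minus strand: acagtgGGTTATGGGgacgtttatgcaaaa
Kcnt1 (sodium-activated), chr2:25894367-25894396, plus strand: actgtgGGCTTCGGTgatgtgacgcccaag
Kcnj9 (inward rectifier), chr1:172326169-172326198, minus strand: accatcGGCTATGGGcaccgggtcatcacc
Kcnj4 (inward rectifier), chr15:79485352-79485381, minus strand: accattGGCTACGGGttccggtgtgtgaca
Kcnj13 (inward rectifier), chr1:87389006-87389035, minus strand: acaattGGTTATGGTaccatgtttcccagt

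The middle of the 3 codons was a tyrosine codon in 60 pore-forming members and a phenylalanine codon in 23, with tandem-pore members counted under both where their matches differ. All 8 Kcnh members, both Kcnt members and Kcnu1 had the phenylalanine codon, as Kcnh7, Kcnh1 and Kcnt1 show above, and Kcnj11 was the only inward rectifier with it. A tandem-pore subunit has a pair of pore loops, and 11 of the 14 Kcnk members held 2 matches, whereas no other pore-forming member did. The 3 Kcnk members with 1 match were Kcnk1, Kcnk6 and Kcnk7, and in Kcnk1 the matching bases are joined from 2 exons and are not shown. The codon after the capitals also sorted by class. It was an aspartate codon (gac or gat) in all 8 calcium- or sodium-activated members, in all 10 silent members and in 22 of 30 voltage-gated members, and the other 8 voltage-gated members were the Kcnh genes, each with an asparagine codon (aac or aat). None of the 13 inward rectifiers had the aspartate codon. None of the 14 tandem-pore members had it at the first match, but all 11 with 2 matches had it at the second.

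Totals per library ranged from 1524165 to 12256374 counts, and per mouse from 7852743 counts in WT mouse 3 to 37582644 in GFAP-IL6 mouse 3. The members took between 0.279% and 0.303% of the counts of a mouse. Levels are given as CPM, that is counts per 1000000 of the mouse's total after TMM scaling. Il6, the transgene's product, was at 0.260, 0.166 and 0 CPM in WT and at 3.16, 1.58 and 4.22 CPM in GFAP-IL6 mice, and it passed the test for higher expression. The cortex label was checked with markers fixed for each cell type. Markers of neurons summed to between 5332 and 6388 CPM in every mouse. Of the striatal list, Drd2 was at 0 counts and Adora2a between 0.104 and 0.831 CPM, but Ppp1r1b was between 110 and 209 CPM. Drd1 was between 6.56 and 14.9 CPM and Rgs9 between 4.59 and 19.3 CPM. Striatal content was not tested. WT mouse 3 stood apart in the choroid plexus list (Ttr, Folr1, Kl, Clic6), which summed to 4065 CPM there and to between 77.7 and 750 CPM in the other 5 mice, with no marker at 0. Several results that rest on WT mouse 3 are therefore also given without it, but not all.

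Frontal cortex expressed most of the family at low levels and a few members strongly. Of the 90 members, 42 reached a mean of 10 CPM in WT, 25 stayed under 1 CPM, and 6 (Kcna7, Kcne1, Kcnj1, Kcnk16, Kcnk18 and Kcnmb3) had 0 counts in all libraries. A count of 0 over all libraries allows up to 0.0266 CPM, for counting error only, since PCR reads without molecular identifiers are not independent molecules. The 5 most abundant members held 31.7% of the members' CPM and the 15 most abundant held 63.2%. Voltage-gated pore subunits (30 genes) took 40.3% of the members' CPM in WT, auxiliary subunits (15 genes) 25.6%, inward rectifiers (13 genes) 9.63%, tandem-pore subunits (14 genes) 9.51%, silent subunits (10 genes) 7.58% and calcium- or sodium-activated subunits (8 genes) 7.36%.

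Subfamily sums cover the members only, without Kcnj10, Kcnj8 and Kcne2. Summed by subfamily, the beta subunits of Kv1 channels (Kcnab) and the Kv1 pores themselves (Kcna) were the highest, and their levels were not distinguishable. Kcnab summed to 426, 388 and 390 CPM in WT mice 1 to 3 and Kcna to 372, 393 and 427 CPM. Next came the calcium-binding Kv4 partners (Kcnip) with 316 ± 9.69 CPM (SD, n = 3), the inward rectifiers (Kcnj) with 287 ± 25.3, the tandem-pore subunits (Kcnk) with 283 ± 8.04 and the ether-a-go-go subunits (Kcnh) with 248 ± 35.3. The WT values of neighbours in this order overlapped in 8 of 19 neighbouring pairs, among them Kcnip with Kcnj, Kcnj with Kcnk, and Kcnk with Kcnh. These named overlaps rest on WT mouse 3. In WT mice 1 and 2, Kcnip was at 326 and 308 CPM and Kcnk at 284 and 290 CPM. Kcnj was at 283 and 263 CPM there and Kcnh at 222 and 232 CPM, without overlap. At the low end were the MinK-related subunits (Kcne) with 6.33 ± 1.34 CPM and Kcnu1, the pH-sensing channel of sperm, with 3.53 ± 0.728 CPM. The Kcnd and Kcnc subfamilies, which carry the A-type and fast-spiking currents, stood between them with 85.3 ± 9.82 and 201 ± 16.8 CPM.

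**Figure D1:**
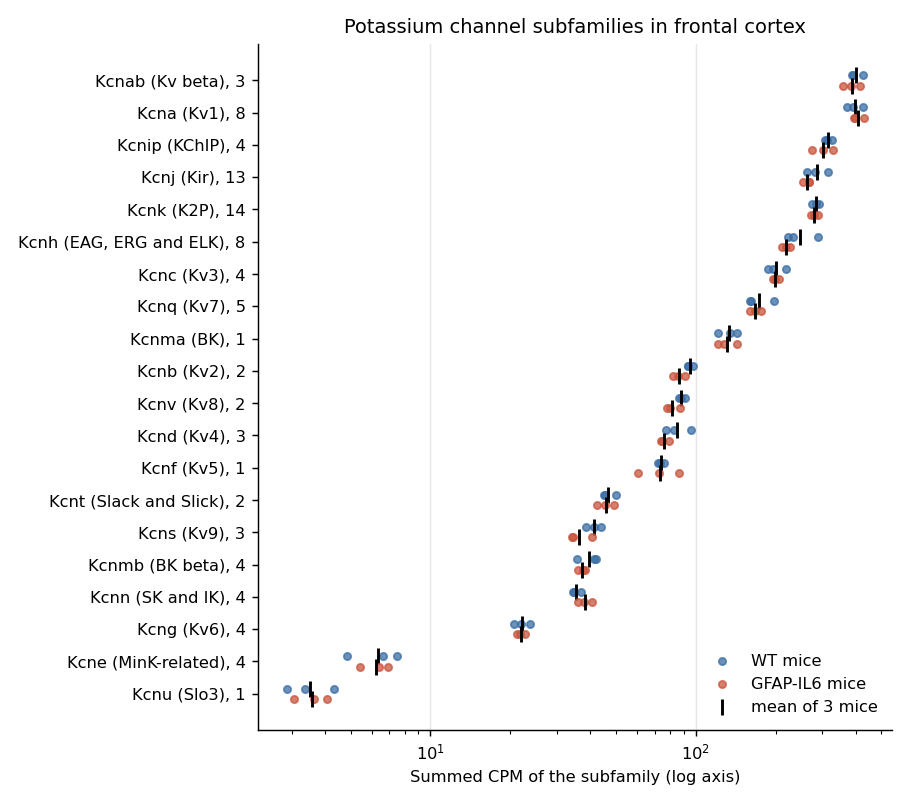
Summed CPM of each of the 20 subfamilies on a log axis, with the number of member genes after each name, 1 point per mouse (3 WT in blue, 3 GFAP-IL6 in red) and a bar at the mean of 3 mice. The points of WT and GFAP-IL6 mice are intermixed in all subfamilies but Kcnb, whose 3 GFAP-IL6 values lie below the 3 WT values.

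A 3' end gives about the same number of read positions for each transcript whatever its length, so CPM was not divided by length for the values above. Per kilobase of the deposited gene length, the same 5 subfamilies led in another order, with 113 ± 4.85 CPM per kb for Kcnk, 110 ± 3.45 for Kcnip, 110 ± 7.02 for Kcnab, 83.0 ± 11.1 for Kcnj and 44.8 ± 3.38 for Kcna. Of the 15 members with the highest CPM, 12 were also among the 15 highest per kilobase.

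**Figure D2:**
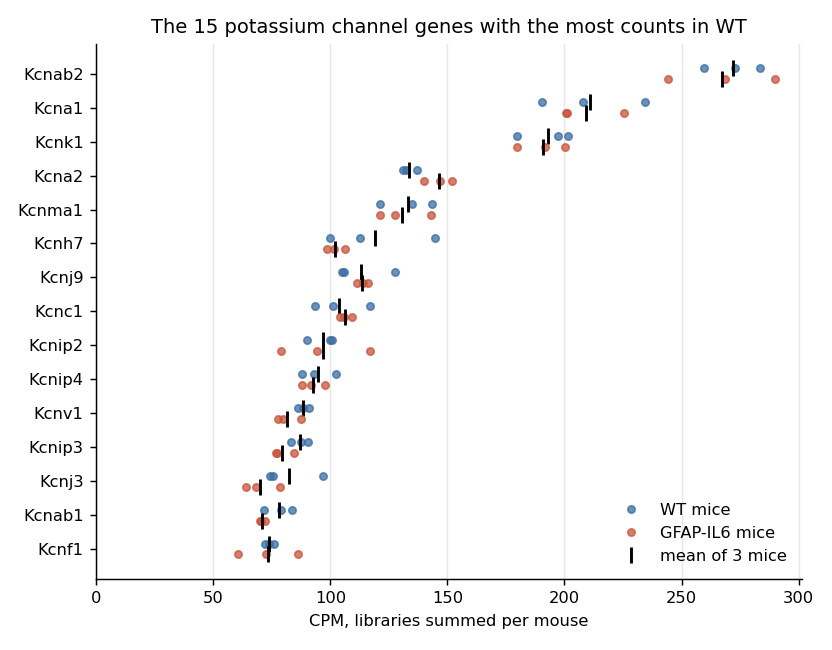
CPM of the 15 members with the highest WT mean, 1 point per mouse (3 WT in blue, 3 GFAP-IL6 in red) and a bar at the mean of 3 mice. Kcnab2 leads with a WT mean of 272 CPM and Kcnf1 closes the list with 73.9 CPM, and the groups overlap in all of the 15 but Kcna2.

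Among the voltage-gated pores, Kcna1 and Kcna2, which form low-threshold axonal channels, led in WT. Kcna1 was at 190, 208 and 234 CPM in WT mice and at 201, 226 and 201 CPM in GFAP-IL6 mice. Kcna2 was at 131, 132 and 137 CPM in WT and at 147, 152 and 140 CPM in GFAP-IL6 mice, so its groups did not overlap. Per kilobase the order of the family changed for both, since their transcripts are long: Kcna1 ranked 9 with 23.5 CPM per kb and Kcna2 ranked 21 with 11.2 CPM per kb. Kcnh7, a subunit of ERG channels, had a WT mean of 119 ± 23.3 CPM (SD, n = 3), and its spread came from WT mouse 3 with 145 CPM against 99.6 and 113 CPM in the others. Kcnc1, whose channels deactivate fast enough for fast-spiking interneurons, had 104 ± 12.1 CPM. Kcnq3, a subunit of the M-current, had 73.1 ± 11.2 CPM and Kcnd2, the main A-type subunit of dendrites, had 66.7 ± 8.36 CPM. Kcnb2, a Kv2 delayed rectifier, had 48.8 ± 2.50 CPM and 3.22 CPM per kb.

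Of the silent subunits, Kcnv1 gave all of the counts of the Kcnv subfamily in WT, with 90.7, 86.2 and 88.1 CPM, and Kcnf1, the only Kcnf gene, had 73.6, 72.2 and 76.1 CPM. Both exceeded the Kv2 pore gene Kcnb2 in CPM in every WT mouse, and their means per kilobase were also higher than its mean, at 19.7 and 15.4 CPM per kb. The sum of the Kv2 subfamily Kcnb, however, was higher in CPM than either of them in every WT mouse. Per kilobase the mean of that sum lay between theirs. Kcns1 had 25.9 ± 3.34 CPM and Kcng1 13.1 ± 0.999 CPM, and Kcns3, which is known from fast-spiking interneurons, had 9.74 ± 0.654 CPM.

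Kcnma1, the pore of the large-conductance BK channel that opens to calcium and depolarization, made up most of the calcium- or sodium-activated group, with 121, 135 and 144 CPM in WT. Kcnmb4, the beta subunit of neuronal BK channels, accounted for 86.8% of the Kcnmb CPM, with 34.4 ± 1.89 CPM, and per kilobase the pair was closer, at 20.5 CPM per kb for Kcnma1 and 25.2 for Kcnmb4. Kcnt1, a sodium-activated channel, had 29.2 ± 1.90 CPM, and Kcnn2, the leading small-conductance calcium-activated channel behind the afterhyperpolarization, had 23.2 ± 0.746 CPM.

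Of the inward rectifiers among the members, which leave out Kcnj10 and Kcnj8, subunits of G-protein-gated channels led. Kcnj9 was at 113 ± 12.8 CPM and Kcnj3 at 82.3 ± 12.6 CPM. Kcnj4, a strong rectifier of forebrain neurons, had 47.9 ± 4.85 CPM and Kcnj16, a glial subunit, 15.9 ± 1.97 CPM. Per kilobase Kcnj9 still led with 29.03 CPM per kb, and Kcnj4 with 22.3 came before Kcnj3 with 15.8. Kcnk1, the tandem-pore subunit with the most counts, gave 68.2% of its subfamily, with 197, 202 and 180 CPM in WT, and it ranked first of all members per kilobase with 83.8 CPM per kb. Kcnab2, which binds Kv1 pores and brings them to the surface, had 283, 260 and 273 CPM and had the highest CPM of all members, and 65.8 CPM per kb, next to Kcnk1 on that scale. Kcnab1, a beta subunit that gives Kv1 channels fast inactivation, had 78.0 ± 6.02 CPM. Of the Kv4 partners, Kcnip2, Kcnip4 and Kcnip3 lay close together at 96.9 ± 5.93, 94.6 ± 7.41 and 87.0 ± 3.51 CPM. Kcne1l led the MinK-related genes with 4.23 ± 1.16 CPM.

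Between genotypes, no member passed the test, and Kcnj10, Kcnj8 and Kcne2 are not among the members. Of the 90 members 69 had enough counts to be tested, and 0 of 69 were called by edgeR's quasi-likelihood test at a Benjamini-Hochberg adjusted p under 0.05, with an adjusted p of 0.411 as the lowest (background over all 14621 genes tested: 1.8%, of which 1.74% higher and 0.0547% lower in GFAP-IL6 mice). With the further threshold of an absolute log2 fold change above 1, 0 members and 1.23% of all genes were called. At an unadjusted p under 0.05 there were 4 members (5.80%, background 8.75%), with a higher mean in GFAP-IL6 mice for Kcnk6 (background 6.27%) and a lower mean for Kcnd2, Kcnh1 and Kcnj4 (background 2.48%). DESeq2 and limma-voom called 0 members as well. In bulk tissue, fewer cells of a type and less RNA per cell cannot be told apart.

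The precision differed with level. For the 42 members with a WT mean of 10 CPM or more, the log2 fold changes lay between -0.24 and 0.21, and the 95% interval lay within 0.5 of 0 on the log2 scale for 41 of them. Over all 69 members tested, 61 had an interval within 1 of 0, and the estimates ranged from -0.77 for Kcnj13 to 0.67 for Kcna5. The median log2 fold change was -0.03 over the members and -0.01 over all genes tested, and the median absolute log2 fold change was 0.121 over the members and 0.113 over all genes. Of the members, 43 of 69 lay below 0 (62.3%, background 51.9%). By class, 17 of 25 voltage-gated, 6 of 8 silent, 6 of 9 inward rectifier and 8 of 12 auxiliary members lay below 0, against 4 of 9 tandem-pore and 2 of 6 calcium- or sodium-activated members.

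**Figure D3:**
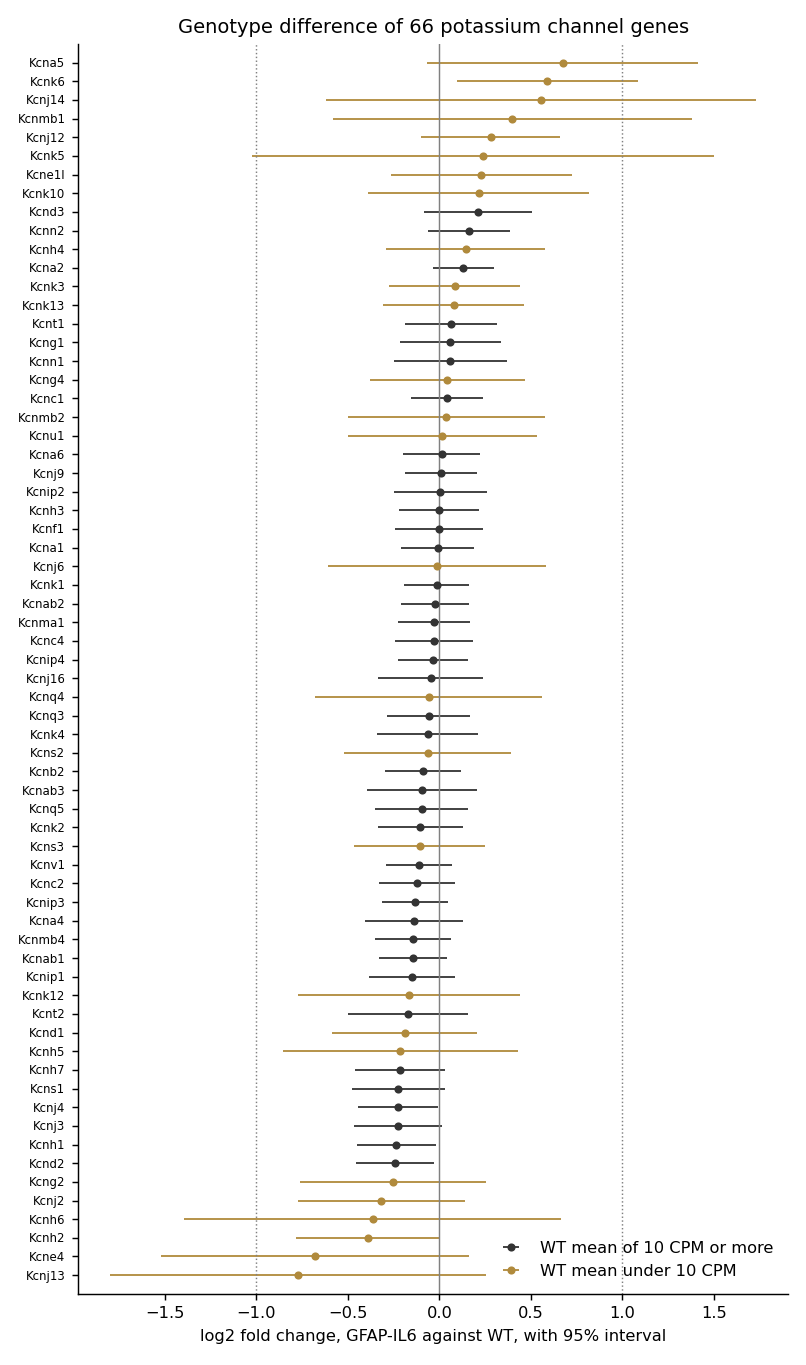
log2 fold change of GFAP-IL6 against WT with its 95% interval for 66 of the 69 members tested, with members at a WT mean of 10 CPM or more in black and those under it in ochre, and dotted lines at -1 and 1. The black points lie between -0.24 and 0.21, and the wide intervals belong to low members such as Kcnj13 and Kcna5.

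Kcnk6 (ENSMUSG00000046410.9, chr7:29221926-29232515, minus strand, 4 exons merged over transcripts), a tandem-pore subunit that is also known from macrophages, had the smallest p of the members. It was at 2.86, 3.71 and 3.15 CPM in WT mice 1 to 3 and at 3.69, 5.37 and 5.29 CPM in GFAP-IL6 mice. GFAP-IL6 mouse 1 lay within the range of the WT mice, so the groups overlapped. The log2 fold change was 0.59 (standard error 0.233, 95% interval 0.09 to 1.09, adjusted p = 0.411), and it ran from 0.52 to 0.73 over the 4 groups of libraries of 1 amount and set. Markers of microglia moved in the same direction: 5 of the 6 on the list (Aif1, Itgam, Cx3cr1, Csf1r and Tmem119) passed the test for higher expression, with P2ry12 at a log2 fold change of -0.02. The list summed to between 206 and 227 CPM in WT and between 306 and 392 CPM in GFAP-IL6 mice with no marker at 0, and its part in the Kcnk6 values was not tested. Of the other members known from microglia, Kcnk13 had 9.64 ± 2.76 CPM in WT and 10.4 ± 0.685 CPM in GFAP-IL6 mice (log2 fold change 0.08, standard error 0.181), and Kcna3 and Kcnn4 had 17 and 31 counts over all 24 libraries, too few to test.

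Kcnd2, Kcnh1 and Kcnj4 had lower means in GFAP-IL6 mice by a small amount. Kcnd2 (ENSMUSG00000060882.5) lies on the plus strand at chr6:21215503-21729805 with 6 exons, Kcnh1 (ENSMUSG00000058248.10) on the plus strand at chr1:192190774-192510159 with 12 exons, and Kcnj4 (ENSMUSG00000044216.6) on the minus strand at chr15:79483714-79505241 with 2 exons. Kcnd2 was at 59.4, 64.9 and 75.8 CPM in WT and at 57.5, 55.8 and 55.0 CPM in GFAP-IL6 mice (log2 fold change -0.24, standard error 0.0994, adjusted p = 0.454). Kcnj4 was at 43.8, 46.5 and 53.2 CPM in WT and at 38.3, 39.6 and 43.8 CPM in GFAP-IL6 mice (-0.23, standard error 0.103, adjusted p = 0.546). In both genes every GFAP-IL6 mouse lay below every WT mouse, for Kcnj4 narrowly (43.75 against 43.83 CPM), and WT mouse 3 was the highest. Without WT mouse 3 the log2 fold change was -0.15 for each. Over the 4 groups of libraries of 1 amount and set it ran from -0.42 to -0.11 for Kcnd2 and from -0.29 to -0.13 for Kcnj4. In set B alone the groups of both genes overlapped. There Kcnd2 was at 57.0 CPM in WT mouse 1 and 58.6 CPM in GFAP-IL6 mouse 1, and Kcnj4 at 47.4 CPM in WT mouse 1 and 47.6 CPM in GFAP-IL6 mouse 3. Kcnh1, the ether-a-go-go subunit, was at 53.5, 56.9 and 58.8 CPM in WT and at 54.2, 43.6 and 46.4 CPM in GFAP-IL6 mice, with GFAP-IL6 mouse 1 inside the WT range (-0.24, standard error 0.1003, adjusted p = 0.496). Its log2 fold change was -0.20 without WT mouse 3.

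WT mouse 3 had the highest sum of voltage-gated pores, 1326 CPM against 1114 and 1156 CPM in the other WT mice and 1167, 1162 and 1139 CPM in GFAP-IL6 mice. The WT mean of these 30 genes was 1198 ± 112 CPM (SD, n = 3) and 1135 CPM without WT mouse 3, and that of GFAP-IL6 mice was 1156 ± 15.1 CPM. For Kcnh7 the log2 fold change was -0.22 with all mice and -0.05 without WT mouse 3, and for the G-protein-gated subunit Kcnj3 it was -0.23 and -0.10. Choroid plexus markers were also highest in this mouse, which had the fewest counts, and the part of either in these values was not tested.

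**Figure D4:**
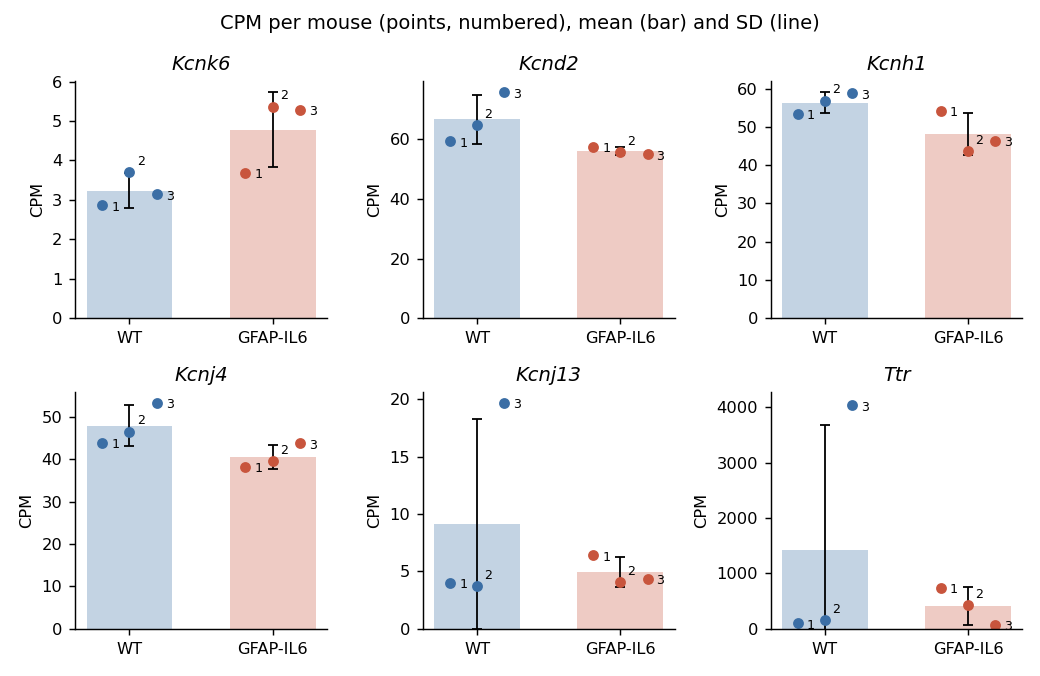
CPM of Kcnk6, Kcnd2, Kcnh1, Kcnj4 and Kcnj13 and of the choroid plexus marker Ttr, with points numbered by mouse, bars at the mean of 3 mice and lines at 1 SD, cut at 0. WT mouse 3 is the highest WT mouse in Kcnd2, Kcnh1, Kcnj4, Kcnj13 and Ttr, at 19.7 CPM for Kcnj13 and 4035 CPM for Ttr.

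Kcnj13 (ENSMUSG00000079436.3, chr1:87386363-87394729, minus strand, 3 exons), an inward rectifier of transporting epithelia such as the choroid plexus, had the lowest log2 fold change, and 1 mouse set it. It was at 4.004, 3.71 and 19.7 CPM in WT mice 1 to 3 and at 6.43, 4.07 and 4.38 CPM in GFAP-IL6 mice. All 4 libraries of WT mouse 3 were high, between 13.6 and 23.7 CPM, whereas those of the other mice lay between 1.59 and 8.65 CPM. The choroid plexus gene Ttr was at 102, 153 and 4035 CPM in WT and at 742, 422 and 74.5 CPM in GFAP-IL6 mice. WT mouse 3 was the highest for Kcnj13 and for Ttr, Folr1, Kl and Clic6. GFAP-IL6 mouse 1 was next for Kcnj13, Ttr and Folr1 (3.16 CPM). For Kl the next was WT mouse 2 (2.44 CPM) and for Clic6 GFAP-IL6 mouse 2 (3.12 CPM). The part of choroid plexus in the Kcnj13 values was not tested. The log2 fold change of Kcnj13 was -0.77 (standard error 0.480, adjusted p = 0.733) with all mice and 0.32 (standard error 0.249, adjusted p = 0.771) without WT mouse 3. In GENCODE vM21 its exons share 623 nt with those of Gigyf2 on the opposite strand, and whether the counting used the strand is not stated.

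Other members with small p-values did not pass the test either. Kcnh2, an ERG subunit, was at 8.27, 6.98 and 10.1 CPM in WT and at 5.27, 6.47 and 6.89 CPM in GFAP-IL6 mice, with no overlap (log2 fold change -0.39, adjusted p = 0.577). With each mouse left out in turn, its log2 fold change ran from -0.52 to -0.26. Kcna5, a Kv1 pore also known from vessels, was at 0.988, 1.99 and 1.70 CPM in WT and at 1.79, 2.25 and 3.06 CPM in GFAP-IL6 mice (0.67, 95% interval -0.07 to 1.41, adjusted p = 0.634). Kcne4, an auxiliary subunit, was at 1.61, 1.61 and 1.31 CPM in WT and at 0.422, 1.01 and 1.19 CPM in GFAP-IL6 mice (-0.68, adjusted p = 0.715). All 3 genes are low, and their intervals were wide. Kcns1 had a lower mean in GFAP-IL6 mice (-0.22, adjusted p = 0.655), and the mean of Kcna2 was higher (0.13, adjusted p = 0.726).

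The 3 values of each genotype did not overlap in 9 of the 69 members (13.04%, background 14.4%). GFAP-IL6 mice were higher for Kcna2, Kcnj12 and Kcnn2 (4.35%, background 8.43%) and lower for Kcna4, Kcnc2, Kcnd2, Kcne4, Kcnh2 and Kcnj4 (8.70%, background 5.94%). Kcnn2 was at 23.9, 23.2 and 22.4 CPM in WT and at 24.8, 26.1 and 26.9 CPM in GFAP-IL6 mice, a log2 fold change of 0.16. Kcnc2, a fast-spiking pore, was at 38.2, 38.4 and 44.2 CPM in WT and at 37.1, 36.4 and 36.9 CPM in GFAP-IL6 mice (-0.12). With each mouse left out in turn, its log2 fold change ran from -0.16 to -0.05. Only 1 of the 20 subfamily sums did not overlap, that of the Kv2 subfamily Kcnb, which was lower in GFAP-IL6 mice. The ratios of the GFAP-IL6 to the WT mean of the subfamilies ran from 0.881 for Kcns to 1.08 for Kcnn.

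Several abundant members had estimates near 0, among them the most abundant member of each class but the silent one. Kcnab2 was at 244, 290 and 269 CPM in GFAP-IL6 mice (log2 fold change -0.02, 95% interval -0.21 to 0.16) and Kcnk1 at 180, 192 and 200 CPM (-0.02, -0.19 to 0.16). Kcnma1 had a log2 fold change of -0.03 (-0.23 to 0.17), Kcna1 -0.01 (-0.21 to 0.19), Kcnj9 0.01 (-0.19 to 0.20), Kcnc1 0.04 (-0.16 to 0.24) and Kcnip2 0.01 (-0.25 to 0.26). Kcnf1 varied more in GFAP-IL6 mice, at 60.7, 72.5 and 86.4 CPM, than in WT, and its log2 fold change was -0.00 (-0.24 to 0.24). The intervals of these 8 genes, taken from the 15 most abundant members, included 0 and reached at most 0.26 from it. Others of the 15 had estimates further from 0, such as Kcnv1, the leading silent subunit (-0.11, -0.29 to 0.07). Among these were also Kcna2 (0.13), Kcnh7 (-0.22) and Kcnj3 (-0.23).

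Of the 21 members not tested, 6 had 0 counts and the other 15 had between 3 and 58 counts in all. The highest was Kcnq1, the pore of cardiac and epithelial channels, with 58 counts, and Kcnn3, Kcne3 and Kcnh8 had 47, 45 and 42 counts. Kcne3 was at 0.676, 0.554 and 0.525 CPM in WT and at 0.105, 0.144 and 0.363 CPM in GFAP-IL6 mice, between 1 and 14 counts per mouse. Kcnk15 had 0 counts in WT mice and 1, 3 and 4 counts in GFAP-IL6 mice, whose totals differ. No fold change is given at this depth.

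Genes that work with the channels were read from fixed lists. Of 17 partners of potassium channels 14 were tested and 0 were called, with log2 fold changes from -0.39 to 0.50, among them Dpp6 (-0.11) and Dpp10 (-0.13), which join Kv4 channels, and Lgi1 (-0.11) and Cntnap2 (-0.16), which organise Kv1 channels on axons. None of 3 HCN channels and none of 8 sodium channel genes tested was called. Of these 25 genes 1 had an unadjusted p under 0.05 in edgeR, the sodium channel beta subunit Scn4b with a log2 fold change of -0.47, and DESeq2 called 0 of them and limma-voom called Scn4b. Of 10 genes for potassium transport 1 was called, Atp1b2, the beta subunit of the glial sodium pump. Atp1b2 was at 224, 213 and 218 CPM in WT and at 286, 270 and 300 CPM in GFAP-IL6 mice (log2 fold change 0.38, standard error 0.0801, adjusted p = 0.0184). Astrocyte markers on the list had 1 of 6 called by edgeR and 2 by limma-voom, and Gfap, the marker called by edgeR, had 19.95 ± 3.78 CPM in WT and 109.6 ± 33.4 CPM in GFAP-IL6 mice (SD, n = 3).

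Of the other cell type lists, 1 of 4 endothelial markers (Flt1, log2 fold change 0.70) and 1 of 3 mural markers (Rgs5, 0.52) were called higher by edgeR, where limma-voom called 2 endothelial markers. The 4 endothelial markers had log2 fold changes from 0.55 to 0.83, and the part of these cells in the channel values was not tested. None was called for 7 neuronal, 3 fast-spiking, 5 oligodendrocyte, 2 precursor, 4 choroid plexus, 3 striatal and 4 blood markers tested by edgeR, DESeq2 or limma-voom, and 1 of these genes, Kl of the choroid plexus list, had an unadjusted p under 0.05 in edgeR. The median log2 fold change was -0.05 over the neuronal list and -0.02 over the fast-spiking list. The striatal list summed to 244 CPM in WT mouse 2 and to between 127 and 167 CPM in the other mice.

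More channels were called between amounts of cDNA in the tagmentation reaction, compared within mice, than between genotypes. With counts summed over sets A and B and the mouse as a block, 22 of 65 members tested were called between 2 ng and 1 ng (33.8%, background 33.3%), 10 higher and 12 lower at 2 ng (backgrounds 15.6% and 17.7%). The share of members was thus close to that of all 13389 genes. These are repeats from the same RNA and measure the protocol, not the tissue. Per the paper, samples are pooled after reverse transcription, and each pool is amplified and tagmented together. Which mice shared a pool is not stated in the sources used here. Mice of 1 pool are not independent repeats of an amount, so the p-values and counts of mice do not measure spread between reactions. The same limit holds for set A against set B. The called log2 fold changes of members ran from -0.90 to 0.27, and 4 were beyond 0.5 in size, each lower at 2 ng.

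Kcna6 (ENSMUSG00000038077.7, chr6:126708329-126740674, minus strand, 3 exons), a Kv1 pore, differed most. At 2 ng it was at 20.7, 20.5 and 29.4 CPM in WT and at 22.4, 25.8 and 25.2 CPM in GFAP-IL6 mice, and at 1 ng at 45.0, 43.5 and 45.2 CPM in WT and at 45.0, 42.1 and 46.2 CPM in GFAP-IL6 mice. All 6 values at 2 ng lay below all 6 at 1 ng (log2 fold change -0.90, standard error 0.0621, adjusted p = 2.92e-41 by edgeR's quasi-likelihood test). Exons of Kcna6 share 2355 nt with those of Gm26673, an antisense gene, so reads of these genes cannot be told apart unless the counting used the strand. Exons of 26 members overlap those of a gene on the opposite strand, 24 of them by at least 100 nt. These overlaps are those of GENCODE vM21. Per the paper, reads were counted on an earlier GENCODE release, whose gene models were not checked. The acid-sensitive leak channel Kcnk3 had means of 6.56 and 11.3 CPM (-0.67, standard error 0.119) and the mechanosensitive leak channel Kcnk2 of 35.5 and 50.8 CPM (-0.52, standard error 0.0551), each lower at 2 ng in 6 of 6 mice. Kcnj4 (-0.43), Kcna4 (-0.33), Kcnma1 (-0.28), Kcnh1 (-0.23), Kcna1 (-0.20), Kcnd2 (-0.16) and Kcnb2 (-0.13) were lower in 6 of 6 mice and Kcnc1 (-0.14) in all mice but 1.

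In the other direction the changes were smaller. Kcnn2 was higher at 2 ng in 6 of 6 mice, with means of 27.3 and 22.7 CPM (log2 fold change 0.27, standard error 0.0705, adjusted p = 0.000651). Kcnab1 (0.23) and Kcnv1 (0.20) also rose in 6 of 6 mice, and Kcnt1 (0.18), Kcnip1 (0.18), Kcns1 (0.18), Kcnh3 (0.14), Kcnab2 (0.13) and Kcnk1 (0.07) were called higher with the difference in 4 or 5 of 6 mice. By class, 8 of 24 voltage-gated pores tested were lower and 2 higher at 2 ng, 3 of 11 auxiliary members were higher and 0 lower, and 2 of 8 silent members were higher and 0 lower. Beside these stand the backgrounds of 15.6% higher and 17.7% lower over all genes, and the difference between classes was not tested. The interaction of amount and genotype was called for 0 members and 0.0% of all genes by edgeR's quasi-likelihood test, and at an unadjusted p under 0.05 for 3 of 65 members (4.62%, background 3.94%).

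**Figure D5:**
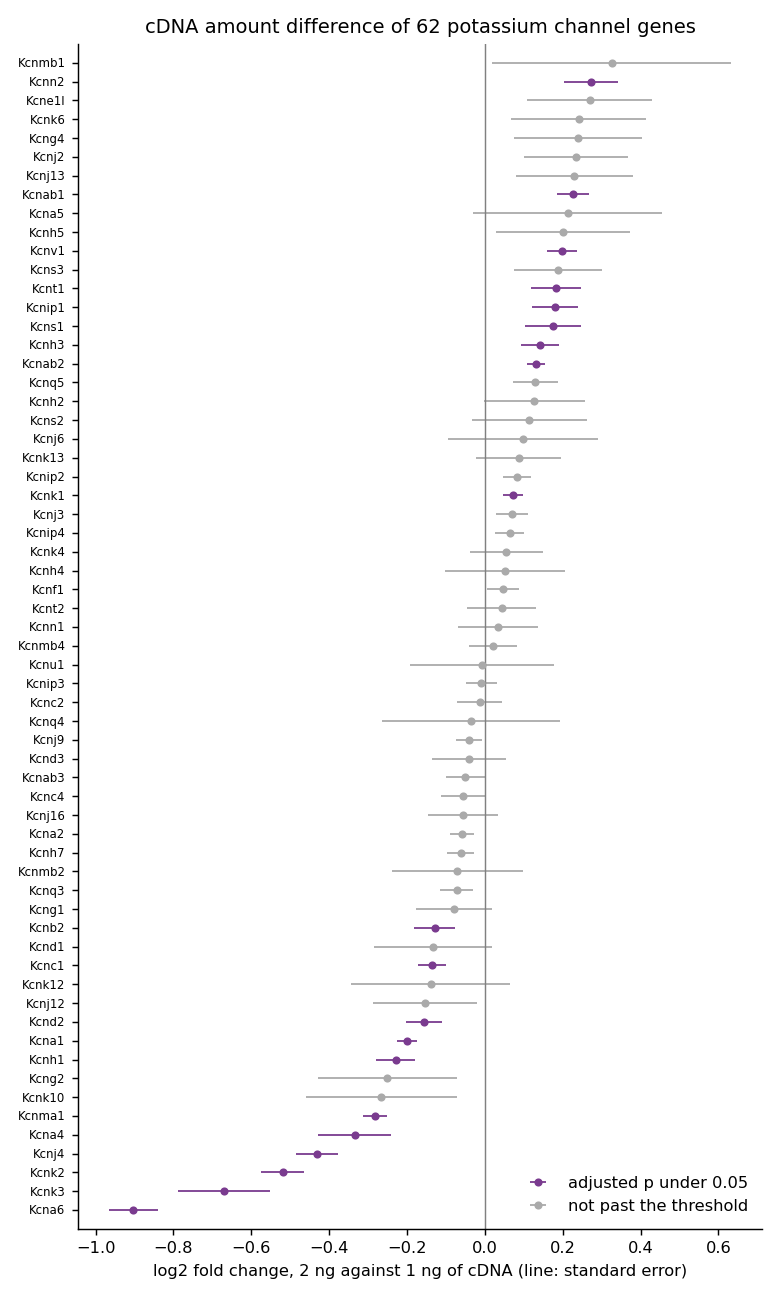
log2 fold change of 2 ng against 1 ng of cDNA for 62 of the 65 members tested, with a line of 1 standard error to each side and the 20 of them past the adjusted threshold in purple. Kcna6, Kcnk3 and Kcnk2 lie between -0.90 and -0.52, and the highest called member, Kcnn2, lies at 0.27.

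Set A and set B differed in 13 of 66 members tested (19.7%, background 23.3%), 8 higher and 5 lower in set A (backgrounds 12.3% and 11.0%). Kcnh2 differed most, with means of 9.10 CPM in set A and 5.81 CPM in set B and higher values in 6 of 6 mice (log2 fold change 0.60, standard error 0.157, adjusted p = 0.00173). Kcnn2 (0.35), Kcnt2 (0.35), Kcnq5 (0.33), Kcnj3 (0.22), Kcnv1 (0.21), Kcnh3 (0.21) and Kcnf1 (0.16) were also higher in set A. Kcns1 (-0.28), Kcnj4 (-0.25), Kcnk2 (-0.19), Kcnip2 (-0.13) and Kcna1 (-0.08) were lower. The interaction of set and genotype was called for 0 members and 0.0% of all genes. At an unadjusted p under 0.05 it was found for 2 of 66 members, Kcnd2 among them (3.03%, background 4.29%). Amount and set were present in equal number in both genotypes, so neither was confounded with the genotype difference.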

How the data were processed

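RNA of 24 3'Pool-seq libraries from 6 mice was analysed. Per the paper's methods, the authors removed polyA ends, mapped reads to mm10 by STAR, and had featureCounts assign unique alignments to GENCODE genes. The submitters' processing notes list STAR 2.4 and the build hg19. The deposited values are raw counts per gene without normalization, and whether counting used the strand is not given in the sources used here. Counts were summed per mouse, and groups were taken from the labels, in which mice are numbered 1 to 3 in each genotype. The quasi-likelihood test of edgeR 4.0.16 (R 4.3.3), run after filterByExpr and TMM scaling and without a covariate, compared the genotypes, and p-values were adjusted over all genes tested. Amounts (2 ng and 1 ng) and sets were compared with the mouse as a block. The genotype test was checked on simulated data with 200 changed genes. It recovered 99% of those at an absolute log2 fold change of 1 and 100% at 2, and 7.44% of the calls were false. The changed genes were not drawn from those at low levels, and smaller changes were not simulated. Sequences, positions and exon overlaps came from GENCODE vM21, a later release than the one that the paper names for the counting. Summaries used pandas 2.3.3, numpy 2.4.6 and scipy 1.17.1 under Python 3.11.15. Totals of 7852743 to 37582644 counts per mouse put the floor of 3 counts at between 0.0798 and 0.382 CPM.

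The members and lists were chosen with earlier results of these data known. Named members were those called between genotypes, the 15 with the highest WT mean, the 12 with the smallest unadjusted p, the leading member of each subfamily and fixed members known from certain cell types. Members called for amount or set, with groups that did not overlap, without a test or carrying a sequence shown, and some channel partners, were also named, after their values were seen. Lists of channel partners, HCN and sodium channels, potassium transport and cell type markers were fixed. Alternatives were DESeq2 1.42.0, DESeq2's size factors, library totals alone, other filters on low counts, other thresholds, the mouse number as a block, omission of each mouse in turn, each set alone, equal totals by thinning, and limma 3.58.1 voom over all libraries. Some genes of the family and of these lists are counted in the totals but not reported here.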

Additional observations from a re-analysis of the deposited data

How the results depend on the processing

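The count of 0 members called between genotypes stayed at 0 in all alternatives but 1: without a filter on low counts 1 of 84 members was called, Kcnj13 (lower, adjusted p = 0.0176). At an unadjusted p under 0.05 there were 4 members by DESeq2, 8 by limma-voom and between 0 and 10 over all alternatives. The median log2 fold change of the members lay between -0.079 and -0.039 when each mouse was left out in turn, and the lower end came without WT mouse 1. Members whose groups did not overlap numbered 11 to 18 with 1 mouse left out, where 3 values are set against 2, and 5 with 1 ng of set A alone. Shares over all genes are not given for the alternatives. The counts of members in this paragraph therefore cannot be read against a background. The WT sum of all members was 2975 CPM and lay between 2903 and 3018 CPM with 1 WT mouse left out. Without the mouse as a replicate block, members called fell from 22 to 12 for the amount of cDNA and from 13 to 3 for the set. For the set, 3 were called with 1 ng libraries alone and 15 with 2 ng libraries alone. Same-numbered mice of the 2 genotypes did not deviate together (correlations -0.05, -0.04 and -0.06 over genes), so the numbers do not pair them, and a replicate block on these numbers left 0 members called, with 5 at an unadjusted p under 0.05. Of 676 alternative values for single named members, 616 moved by less than the spread between mice or kept their side of the threshold. Of the rest, 59 moved by more and 1 was graded stronger. A change of sign was counted for called values only, and no member was called in the main test. Estimates did change sign for some members, such as Kcnj13 (-1.19 to 0.32) and Kcnma1 (-0.20 to 0.16). The causes were not tested. Depth limits the 21 members under the filter and those under 10 CPM, whose intervals were wide.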
